A study of Homo sapiens with 8 samples.

Results

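Open chromatin regions of at least 1500 bp were taken from 8 ATAC-seq peak lists of 293T cells, a line grown from human embryonic kidney and transformed with viral genes, among them the large T antigen. Overlapping peaks (1 bp or more) from the 8 lists were joined on chromosomes 1 to 22 and X, and a merged region was kept where its end minus its start came to 1500 bp or more. This left 362 of 36638 merged regions (0.988%), called wide regions here. They held 614 kb of the 22.1 Mb that all merged regions covered (2.77%). In ATAC-seq a transposase cuts open DNA and adds sequencing adapters where it cuts. All libraries came from cells that were crosslinked, permeabilised, tagmented and then incubated with Q Sepharose, an anion exchange resin that holds negatively charged material until salt releases it. FT is the part that did not bind, and G20, G100, G200, G300, G500, G700 and G1000 are the washes that followed one another with 20, 100, 200, 300, 500, 700 and 1000 mM NaCl. Each fraction was 1 library, so no value below has a replicate error, and every comparison is between these libraries. Inside the files, FT peaks are named GL and G200 peaks G50_200, and it could not be settled that G200 is the 200 mM wash by itself. Positions are hg19 and counted from 1.

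Most accessible sites are short, since the stretch of DNA that is kept free of nucleosomes at a promoter or enhancer is itself short. Wide accessible stretches are known from CpG island promoters, from promoters that face each other on opposite strands, from gene clusters with dense start sites and from enhancer groups. Reads from repeats whose copies the assembly collapses, such as centromere satellites, can also give wide peaks. The genes and bases under these regions were not analysed here, since the reference tables used here are in another genome build.

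The median width of all merged regions was 529 bp, and that of the regions called in all 8 lists was 938 bp. Wide regions had a median of 1648 bp, with quartiles of 1555 and 1756 bp and a maximum of 3120 bp. Most lay close above the threshold: 133 were under 1600 bp, 205 had 1600 to 1999 bp and 24 had 2000 bp or more. The members just inside were chr3:11760735-11762234 and chr1:117367412-117368911, both 1500 bp, and chr11:102323065-102324565 with 1501 bp. Just outside were chr6:149866208-149867705 with 1498 bp, chr5:180633736-180635232 and chr1:227505382-227506878, both 1497 bp. Since the rule chose regions by this width, the widths are a description.

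Being called in the merged set as a wide region did not mean that one library held an open stretch of that width. In 185 of the 362 regions at least 1 list had a single peak of 1500 bp or more, and in the other 177 the width came only from adding lists or separate peaks together. In 127 regions the outer ends of each list's own peaks lay under 1500 bp apart, in every list. In 95 regions, 58 of them without a single peak of 1500 bp, at least 2 lists called parts that shared no base. At the other end, 4 regions were spanned over 1500 bp or more in all 8 lists: chr6:58776318-58779437, chr12:120728839-120731240, chr18:18518436-18520338 and chr5:10058-11759. On chromosomes 5 and 6 this was a single peak in each list.

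Wide regions were called in many fractions. Of the 362, 178 (49.2%) were called in all 8 lists, against a background of 11.4% of all merged regions. With peaks of −log10 q of at least 5 this share was 30.3%. A further 78 were called in 7 lists, 50 in 6, 27 in 5, 17 in 4, 8 in 3 and 4 in 2. There was no wide region among the 14952 regions that a single list called. A region that more lists call has more chances to be extended, so width and number of lists are not independent. Among regions of 1000 to 1499 bp the share called in all 8 lists was 45.0% (1470 of 3265), close to that of the wide regions.

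The fractions differed in how many wide regions they called, and the 3 libraries of highest depth called the most. FT called 360 (background 61.6% of all merged regions), G20 called 348 (52.5%), G100 called 324 (35.7%) and G200 called 327 (43.2%). G300 called 350 (53.2%), G500 called 287 (28.0%), G700 called 238 (21.8%) and G1000 called 271 (27.6%). Over all regions FT, G300 and G20 were likewise the lists with the most calls and G700 the one with the fewest. The genome background of each library, the number of reads expected over a point away from peaks, was recovered from the deposited peak statistics and is a relative depth. It was 0.662 reads (FT), 0.420 (G20), 0.320 (G100), 0.239 (G200), 0.497 (G300), 0.279 (G500), 0.248 (G700) and 0.291 (G1000). The highest backgrounds were those of FT, G300 and G20. The lowest was that of G200, which called more wide regions than G100, G500, G700 and G1000. The part of depth in these counts was not tested. The 2 wide regions that FT did not call were both staggered, chr7:83823992-83825707 and chrX:54555409-54556923. There were 15 wide regions called by the FT, G20 and G100 lists while the G500, G700 and G1000 lists lacked them (4.14%), near the background of 3.12% of all merged regions. There were 0 of the reverse, against a background of 0.00546%. Of the 78 regions missing from a single list, 38 were missing from G700, 18 from G1000, 10 from G500, 5 each from G100 and G200, and 1 each from G20 and G300. G700, G1000 and G500 were also the lists with the fewest calls over all regions. The same split over all 2309 regions called in 7 lists was not made, so this order is not shown to be particular to wide regions.

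The reach of a fraction in a wide region, taken from the outer ends of its own peaks, also differed by library. The median reach was 1480 bp (FT), 1150 bp (G20), 802 bp (G100), 855 bp (G200), 1202 bp (G300), 723 bp (G500), 567 bp (G700) and 682 bp (G1000). FT, G300 and G20 reached farthest, as they did in the number of regions called. A single peak of 1500 bp or more was found in 143 wide regions in FT and 53 in G300. G20 had 27 such regions, G200 had 17, G1000 had 12, G100 and G500 had 9 each and G700 had 4. FT set at least 1 of the 2 outer ends in 225 of the 362 regions and both ends in 53. G300 set both ends in 10 regions, and no other list did so in more than 4. Without the FT list only 186 merged regions reached 1500 bp.

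**Figure D1:**
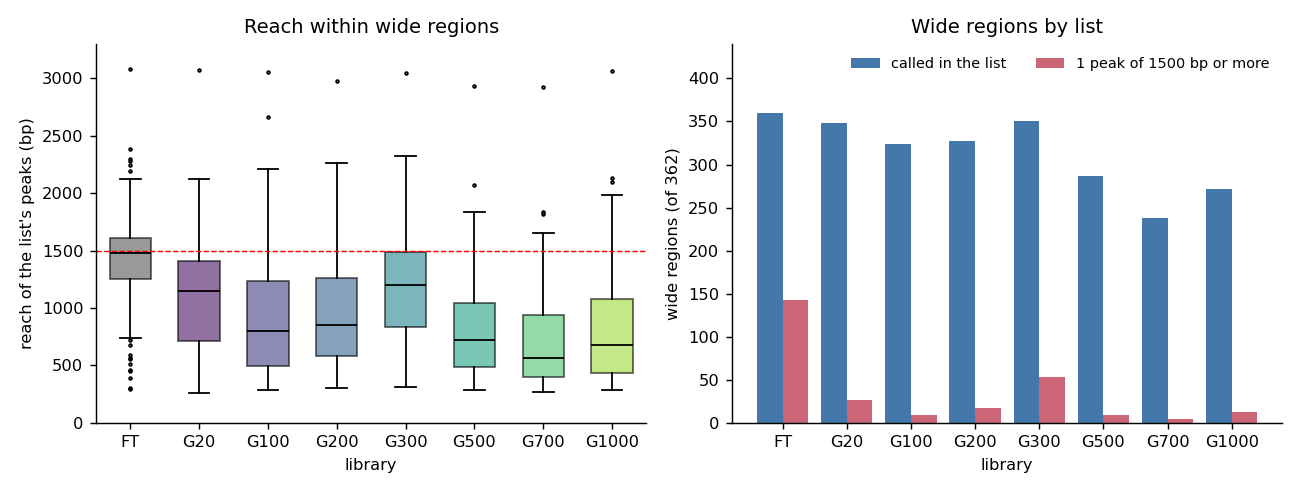
Left, reach of each list's own peaks (bp) within the wide regions it calls, as boxes from the lower to the upper quartile with the median as a line, whiskers to the farthest point within 1.5 box lengths and single points beyond, and the 1500 bp threshold dashed. Right, number of the 362 wide regions each list calls, and number in which it has a single peak of 1500 bp or more: FT has 143 of these and G700 has 4.

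In the 178 wide regions that every list called, the late washes reached over a smaller share of the width than in other regions of all 8 lists. The median share of the merged width that FT reached was 91.9% in wide regions and 88.6% in the 4014 other regions. In G700 these medians were 36.1% and 54.6%, in G500 49.9% and 61.5%, and in G1000 52.8% and 60.9%. G20 reached 75.1% and 75.6%, G100 61.5% and 67.8%, G200 66.2% and 72.2%, and G300 78.3% and 78.7%. The backgrounds of G700, G500 and G1000 were 0.248, 0.279 and 0.291 reads, and that of G200 was 0.239 reads. The part of depth in these shares was not tested. The wide regions were chosen by their merged width, so these shares are a description.

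Wide regions broke into several peaks far more often than narrower ones. At least 1 list broke 185 of the 362 wide regions (51.1%) into separate peaks, against a background of 1.06% of all merged regions and 6.22% (203 of 3265) of those of 1000 to 1499 bp. A broken region needs room for 2 peaks and a gap, which a region of the median width of 529 bp does not have. Many background regions thus could not break, which holds for the backgrounds of single lists below as well. Also, 2 separate peaks of a list can bring a region to 1500 bp, so the rule itself favours broken regions. The contrast is a description, and how much of it goes beyond width and the rule was not tested. No list had more than 2 peaks in a wide region. In each list the smallest gap between neighbouring peaks was close to its shortest peak, from 263 bp beside 261 bp in G20 to 298 bp beside 294 bp in G200, so 2 openings closer than this appear as 1 peak.

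G20 broke wide regions most often. It broke 77 of the 348 it called (22.1%, 95% Clopper-Pearson interval 17.9 to 26.9), against a background of 0.713% of all regions in its list. FT broke 39 (10.8%, 7.82 to 14.5; background 0.403%) and G100 broke 41 (12.7%, 9.24 to 16.8; background 0.520%). G200 broke 43 (13.1%, 9.68 to 17.3; background 0.436%) and G300 broke 52 (14.9%, 11.3 to 19.0; background 0.456%). The late washes broke the smallest numbers. G500 broke 23 (8.01%, 5.15 to 11.8, background 0.361%), G700 broke 26 (10.9%, 7.26 to 15.6, background 0.489%) and G1000 broke 20 (7.38%, 4.57 to 11.2, background 0.355%). By share, FT was just below G700. Among the 178 wide regions called in all 8 lists the share was lowest in FT (6.18%) and highest in G20 (19.7%). There it was 11.2% in each of G100, G300 and G700. The interval of G20 lies above those of FT, G100, G200, G500, G700 and G1000 and overlaps that of G300. These intervals cover counting error over regions only. Of the 77 gaps of G20, 7 were under 302 bp, the smallest gap of G200 in a wide region, and with all gaps of up to 300 bp closed G20 broke 70 (20.1%). The part of each list's smallest gap in these shares was not tested.

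A fall of this share with NaCl over the 7 washes did not pass the adjusted test. Spearman's rho was −0.82 (exact permutation p = 0.0341, two-sided, 5040 orders; adjusted p = 0.0532 over 4 tests). Pearson's r came to −0.77 (exact permutation p = 0.0399, adjusted p = 0.0532). Without the 2 washes farthest from the median NaCl concentration r was −0.80. The washes came from the same resin as far as the labels tell, so they are separate libraries but not independent preparations. The broken share is also not independent of the choice of regions, since 2 separate peaks of a list can themselves bring a region to 1500 bp. In chr1:117367412-117368911 the 2 peaks of G20 span the full 1500 bp. The part of this in the trend was not tested. A list that reaches into only 1 side of a region cannot break it. Among regions in which the list itself reached over at least 1000 bp, G700 broke 26 of 54 (48.1%), G20 77 of 200 (38.5%), G100 40 of 130 (30.8%) and G200 43 of 144 (29.9%). G500 then broke 23 of 85 (27.1%), G1000 20 of 76 (26.3%), G300 52 of 228 (22.8%) and FT 39 of 317 (12.3%). Reach runs across the gap, so a broken region meets this limit more easily than an unbroken one. The limit kept 40 of the 41 regions that G100 broke and every region that the other lists broke. Shares counted in this way, which was chosen after seeing the data, are thus raised by the limit itself. Their rho with NaCl was −0.32 (exact permutation p = 0.498), which cannot decide for or against the trend.

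**Figure D2:**
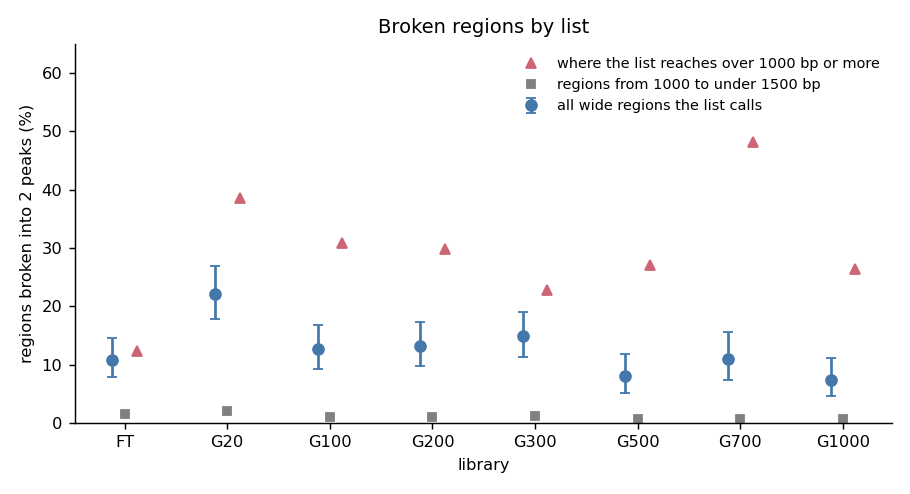
Share of regions (%) that each list breaks into 2 peaks. Circles with 95% Clopper-Pearson intervals show all wide regions the list calls, triangles those in which it reaches over at least 1000 bp, and squares regions of 1000 to 1499 bp: G20 has the highest circle (22.1%), and the squares lie between 0.583% and 1.97%.

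Where several lists broke a region, their gaps mostly overlapped, which the layout of a broken region favours. A gap has a peak on each side, so it cannot lie at the region's ends. How much overlap this alone would give was not tested. The centre of the gap had a median position of 49.9% of the region's width, with quartiles of 43.5% and 56.8%, over 321 breaks. Of the 72 regions broken in at least 2 lists, 69 had a stretch that was a gap in every list that broke them, with a median length of 326 bp. In 33 of the 72 the peak with the higher −log10 q was on the same side in each list that broke the region. Of the 72, 40 were broken in just 2 lists, which can share a side without any preference. Merging by overlap keeps a broken region whole only where peaks of other lists cover the gap, so each gap is covered by construction. In 172 of the 185 broken regions at least 1 other list covered the gaps of all lists that broke the region with a single peak. Of the 77 regions that G20 broke, FT bridged the gap in 59, G300 in 27 of the 76 it called, G200 in 12 of 69, G100 in 11 of 70 and G700 in 2 of 49. G20 bridged 9 of the 39 gaps of FT.

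The region chr1:68297572-68299256 (1685 bp) was broken in 6 of the 8 lists, the most of any wide region. Its peaks left and right of the gap had 22 and 28 reads at the summit in FT, 21 and 24 in G20, 23 and 26 in G100, and 24 and 16 in G200. In G700 they had 16 and 11 reads, and in G1000 21 and 18. G300 had a single peak of 1423 bp with 35 reads across the gap, and G500 called the right side alone with 14 reads. The side with more reads was the right one in FT, G20 and G100 and the left one in G200, G700 and G1000.

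The region chr5:180648867-180650985 (2119 bp) had 2 peaks in 5 lists and the right one was higher in each. The reads left and right were 41 and 61 in G20, 30 and 38 in G100, 34 and 50 in G200, 41 and 70 in G300, and 18 and 24 in G700. FT and G1000 covered it with a single peak of 2113 and 1987 bp, and G500 called the right side alone, over 754 bp. Among other regions broken in 5 lists, with 13 peaks in all, the widest were chr9:73033151-73035849, chr1:204475366-204477505, chr17:73029777-73031730 and chr4:26320723-26322673. Since many regions had 2 peaks in at least 1 list, these were named for their number of peaks over all lists.

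The widest region, chr6:58776318-58779437 (3120 bp), looked alike in every fraction. It was 1 peak of 3081 bp (FT), 3075 bp (G20), 3054 bp (G100), 2977 bp (G200), 3050 bp (G300), 2937 bp (G500), 2927 bp (G700) and 3064 bp (G1000). Its summit moved within the region by up to 2553 bp between lists, and its fold enrichment, the authors' value, was low, at 4.11 to 4.59. The longest stretch without peaks on its chromosome, where the centromere is, lay less than 1 Mb away. Of the 362 wide regions 6 (1.66%) lay so, against 485 of all 36638 (1.32%), among them chr18:18518436-18520338, with a reach of 1534 bp in G700 to 1897 bp in G1000. Another 2 lay within 20 kb of a chromosome end.

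The next widest regions showed different shapes. The region chr9:73033151-73035849 (2699 bp) was 2 peaks in FT, G100, G200, G300 and G1000, with a gap near its middle, a single peak of 1974 bp in G20, and only its left peak in G500 and G700. The region chr1:244997269-244999721 (2453 bp) was a single peak in each list, from 897 bp in G700 to 2104 bp in G300, and FT, the library of highest background, had 1381 bp there. The region chr12:120728839-120731240 (2402 bp) was a single peak of 1832 to 2383 bp in FT, G20, G500, G700 and G1000 and 2 peaks in G100, G200 and G300. In chr12:39298555-39300889 (2335 bp) 2 weak peaks appeared in 5 lists, G100 and G500 called the left one alone and G700 neither. Where peaks had to share 100 bp to be merged, its widest piece was 1269 bp and it was no longer a wide region.

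The region chr5:176881271-176883585 (2315 bp) owed its width to FT, which had a weak single peak of 2192 bp with a −log10 q of 6.87. G20, G300 and G500 had short peaks of 378, 344 and 361 bp that shared no base with one another. The region chr6:128839918-128842212 (2295 bp) was a single peak of 2158 bp in G300, 2 peaks in FT and G1000, and a short right peak in G20 and G100. The other 5 of the 12 widest were chr6:144327576-144329869, chr6:126110638-126112881, chr5:121412287-121414574, chr12:77272353-77274595 and chr1:101701010-101703172. In each of these 5, FT reached 1672 bp or more and at least 1 wash did not call the region.

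**Figure D3:**
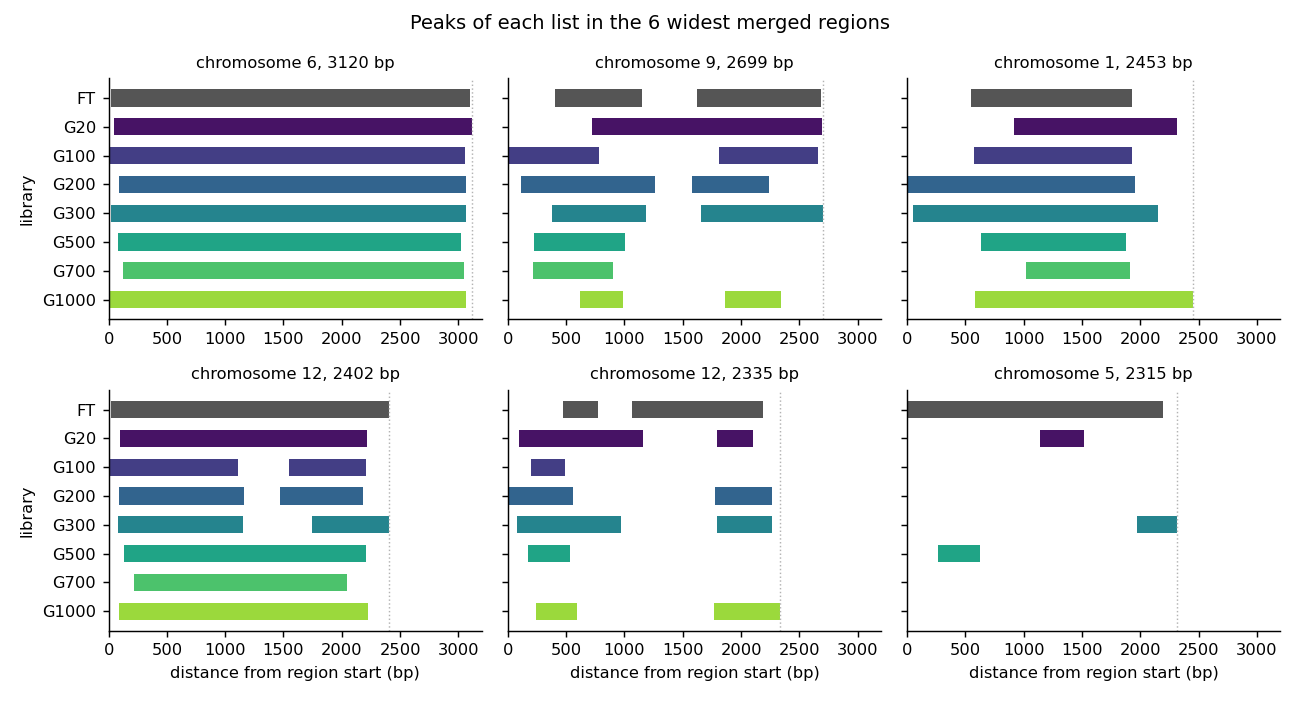
Peaks of each list (rows, FT at the top and G1000 at the bottom) as bars in the 6 widest merged regions, against distance from the region's start (bp), with the region's end dotted. The region of 3120 bp is 1 peak in every list, that of 2699 bp is 2 peaks in 5 lists, and that of 2315 bp is wide in FT alone.

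Of the 4 members called by only 2 lists, the 3 widest are described here, and FT called each of them. The region chr5:138088240-138090019 (1780 bp) was called in FT over 1459 bp and in G200 over 486 bp. The region chr6:108880415-108882166 (1752 bp) was called in FT over 1168 bp and in G20, where 2 peaks reached 1752 bp. The region chr15:75198101-75199673 (1573 bp) was a single FT peak of its full width with 339 bp in G20. Other lists did not call them, which at their depths does not show that the sites were closed.

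Over the 178 called in all 8 lists the median number of reads at the summit was 31 (FT), 26 (G20), 20 (G100), 21 (G200), 30 (G300), 16 (G500), 14 (G700) and 17 (G1000). In other regions of all 8 lists it was 28, 25, 17, 19, 26, 15, 13 and 15 in the same order, 1 to 4 reads lower. The maximum is taken over more bases in wide regions, and the part of this was not tested. The authors' fold enrichment, by contrast, had a lower median in wide regions in each list, for example 6.15 against 7.57 in FT, 6.98 against 8.74 in G20 and 5.81 against 6.73 in G700. Of the 100 regions of highest −log10 q in a list, between 6 (G20) and 11 (G700) were wide. Wide regions made up 1.81% of all regions called in G20, 2.98% of those in G700 and 4.25% of those called in all 8 lists. Among the regions of all 8 lists the median −log10 q was lower in wide than in other regions in each list. It was 13.9 against 15.0 in FT and 13.6 against 16.1 in G20, for example. Reads over whole regions were not counted. Summed over the 8 lists, summit reads were highest, at 1134, on chr1:149222975-149224633, which was picked after its values were seen. It had 182 reads (FT), 187 (G20), 118 (G100), 128 (G200), 202 (G300), 110 (G500), 95 (G700) and 112 (G1000).

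The place of the highest point changed more between fractions in wide regions. The summit of the strongest peak moved by a median of 478 bp between the lists that differed most, with quartiles of 265 and 950 bp, against 289 bp in the 1470 regions of 1000 to 1499 bp called in all 8 lists and 228 bp in all other regions of 8 lists. It moved by over 500 bp in 86 of 178 wide regions (48.3%), against 17.3% and 7.92% in those sets. A wider region leaves more room for this. In 5 wide regions all 8 summits lay within 100 bp.

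Read numbers at the wide regions were near those expected from the other shared regions in every fraction. Each read number is the highest pileup of a list in the region, and its place could differ between lists. The intervals below treat these maxima as counts of 1 site, so they do not give the full error of the ratios. Summed over the 178 regions and set against the 3969 other shared regions with a recovered number, the reads were 0.993 times the expected number in FT (0.970 to 1.02, a 95% Poisson interval taken as if for plain counts). In G20 they were 0.947 times that number (0.923 to 0.971). They were 1.00 times in G100 (0.971 to 1.03), 0.996 times in G200 (0.968 to 1.02), 1.03 times in G300 (1.00 to 1.05), 1.02 times in G500 (0.992 to 1.06), 1.00 times in G700 (0.968 to 1.04) and 1.03 times in G1000 (0.998 to 1.06). G20 was the lowest, and the intervals of G20 and G300 were the ones that did not include 1. The trend with NaCl did not pass the adjusted test: rho was 0.82 (exact permutation p = 0.0341, adjusted p = 0.0532) and r was 0.64 (exact permutation p = 0.115, adjusted p = 0.115). Without the 2 washes farthest from the median, r was 0.81. Scaled to each library's background instead, rho turned to −0.71 (exact permutation p = 0.0881). The background scaling put G200 at 1.49 times and FT at 0.761 times.

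**Figure D4:**
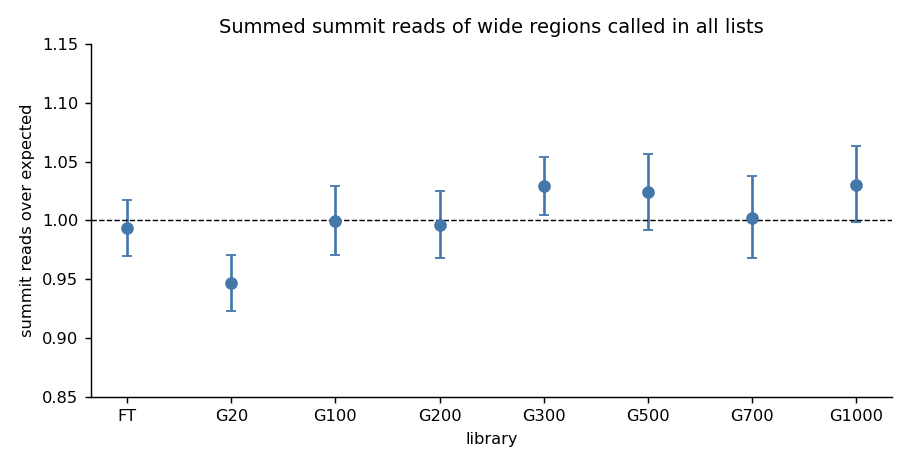
Reads at the summits of the 178 wide regions called in all 8 lists, over the number expected from other shared regions, by library, with a dashed line at 1. The 95% Poisson intervals treat the summit maxima as plain counts. The axis does not start at 0, and G20 lies lowest at 0.947.

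The number of single wide regions whose reads differed between libraries depended on the scaling. Each library was set against the other 7 in an exact binomial test over all 4147 shared regions (33176 tests, two-sided, Benjamini-Hochberg adjusted), which compares libraries and not conditions. It called 7 of the 178 wide regions (3.93%), against a background of 1.66% of all shared regions. Of all tests on wide regions 5.76% had an unadjusted p under 0.05, against 5.07% over all regions. The 7 calls came from FT, G200 and G500, and there were 2 without G200, 4 without FT and 0 without both. The share over all shared regions was not counted without these libraries, so these counts do not describe wide regions in particular. Scaled to each library's background, which was added after seeing the data, the test called 56 of the 178, against a background of 27.3% of all shared regions. This scaling thus raised the calls over all shared regions as well.

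At the start of chromosome 5, from 10058 to 11759, near the telomere repeats, the summit held 45 reads (FT), 80 (G20), 99 (G100), 59 (G200), 124 (G300), 96 (G500), 49 (G700) and 62 (G1000). FT had 0.427 times the expected reads (adjusted p = 4.73e-09, exact binomial test) and G500 had 1.66 times (adjusted p = 0.00115), while the 1.44 times of G100 was not called (adjusted p = 0.0719). Without FT and G200 the test called 0 wide regions, so G500 was not called at this site. The width there hardly differed, with a single peak of 1648 to 1684 bp in every list.

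The regions chr1:16839465-16841030 and chr1:16992048-16993850 lie in a stretch known, as background and not from an annotation used here, for genes of the U1 small nuclear RNA and related copies. In the former, G200 had 138 reads, 1.62 times the expected number (adjusted p = 1.57e-05, exact binomial test), while FT had 129, G20 95, G100 71, G300 112, G500 59, G700 44 and G1000 53. In the latter G200 had 115 reads, 1.46 times the expected number (adjusted p = 0.0199, exact binomial test). The third wide region of this stretch, chr1:17066611-17068330, was not called, with 107 reads in G200, 1.30 times the expected number (adjusted p = 0.454, exact binomial test). On chr19:54693261-54695072 G200 had 1.53 times the expected reads (adjusted p = 0.0213, exact binomial test). G200 was lower on chr1:244997269-244999721, at 0.521 times, and on chr6:58776318-58779437, at 0.673 times (adjusted p = 0.0409 in both, exact binomial test). On chr16:30345674-30347179 FT had 50 reads, 1.76 times the expected number (adjusted p = 0.0221, exact binomial test), and each other list had between 9 and 25. FT was also the one list that reached over the whole 1506 bp there, and the others reached 503 to 1208 bp.

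Wide regions were spread over all 23 chromosomes and were denser on some. Chromosome 1 held 64 of the 362 (17.7%) and 10.6% of all merged regions, so that 1.64% of its regions were wide (95% Clopper-Pearson interval 1.27 to 2.09), against 0.988% in all. Chromosome 6 followed with 37 (1.40%, 0.988 to 1.93), then chromosome 3 with 32 (1.34%, 0.918 to 1.89), chromosome 5 with 27 (1.32%, 0.868 to 1.91) and chromosome 2 with 26 (0.926%, 0.606 to 1.35). Chromosomes 4 and 7 held 22 each, chromosome 12 held 15, chromosome 10 held 14 and chromosomes 8 and 11 held 13 each. There were 11 on chromosome 17, 10 on chromosomes 9 and X each, 9 on chromosome 14, 8 on chromosome 15, and 7 each on chromosomes 16 and 19. The smallest numbers were 6 on chromosome 13, 3 on chromosomes 18 and 20 each, 2 on chromosome 22 and 1 on chromosome 21. The interval of chromosome 1 lay above the share in all, and that of chromosome 6 began at it.

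Taken over sets of chromosomes, which were chosen after their values were seen, 1.28% of the regions of chromosomes 1 to 7 were wide (230 of 17908, 1.12 to 1.46) against 0.699% of those of chromosomes 8 to 22 (122 of 17447, 0.581 to 0.834). On chromosomes 16 to 22 it was 0.555% (34 of 6125, 0.385 to 0.775). Regions called in all 8 lists showed the same order, at 5.43% (113 of 2081) on chromosomes 1 to 7 and 2.97% (57 of 1918) on chromosomes 8 to 22. The difference was much smaller one step below the threshold, since 9.24% and 8.57% of the regions of these 2 sets were 1000 to 1499 bp wide. Chromosome 19, which is rich in genes, had the largest median width of all regions, 628 bp, and 9.87% of its regions were 1000 to 1499 bp wide, but 7 of 1368 (0.512%, 0.206 to 1.05) reached 1500 bp. Of the 24 regions of 2000 bp or more, 8 were on chromosome 1, 4 each on chromosomes 5 and 6, 3 on chromosome 12 and 1 each on chromosomes 2, 9, 10, 15 and X. No test of these shares was made, and regions are not replicates.

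**Figure D5:**
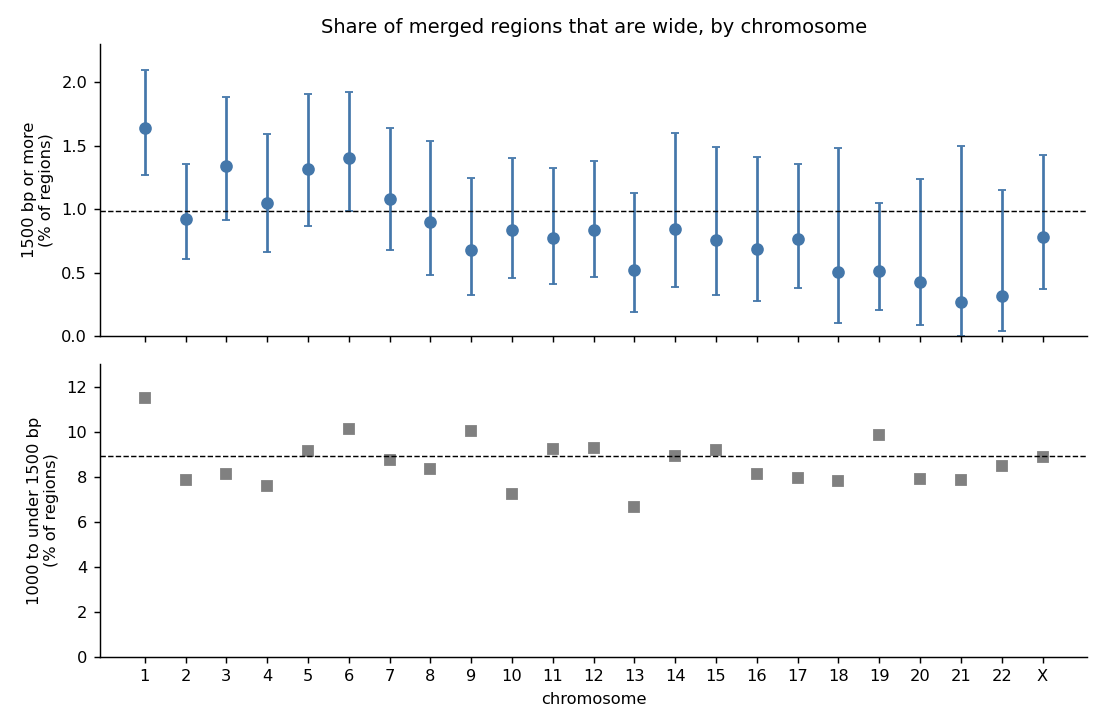
Share of merged regions (%) that are wide, by chromosome, with 95% Clopper-Pearson intervals (top), and share that are 1000 to 1499 bp wide (bottom), with the share over all chromosomes dashed. Chromosome 1 is highest in both, at 1.64% and 11.5%, and the top panel falls towards chromosomes 20 to 22 while the bottom panel does not.

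Wide regions lay about as far from their nearest neighbour as all merged regions did. The nearest other region lay at a median of 16.5 kb, against 16.9 kb for all regions, and 8 wide regions (2.21%) had one within 1 kb, against 8.65% of all regions. Merging itself removes close neighbours of a region that grew. Of neighbouring wide regions 17 pairs lay within 100 kb of each other. The closest were 12.4 kb apart on chromosome 6 (27099375 to 27101197 and 27113616 to 27115288) and 17.3 kb apart on chromosome 7 (139024843 to 139026637 and 139043978 to 139045550).

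The 2 Mb with the most wide regions lay on chromosome 6 between 26020603 and 27760757, a stretch known, again as background, for the largest cluster of histone genes, with 7 wide regions of 1601 to 1926 bp among 126 regions (5.56%). The share was higher in 2 Mb stretches with fewer regions, such as 3 of 29 (10.3%) from 16839465 on chromosome 1 and 4 of 39 (10.3%) from 138144426 on chromosome 7. Of the 7 on chromosome 6, 5 were called in all 8 lists. The widest, from 26020603 to 26022528, was reached over 1785 bp (FT), 1637 bp (G20), 1045 bp (G100), 672 bp (G200), 1505 bp (G300), 778 bp (G500), 397 bp (G700) and 432 bp (G1000). Its reach was thus long in FT, G20 and G300 and short in G700 and G1000. The region from 27099375 to 27101197 went another way, with 1524 bp (FT), 700 bp (G20), 1526 bp (G100), 922 bp (G200), 1533 bp (G300), 590 bp (G500), 1627 bp (G700) and 1559 bp (G1000). FT and G300 had a single peak there, while G100, G700 and G1000 each had 2 peaks with a gap of 438, 581 and 410 bp. Without the gap G700 covered 1046 bp and G1000 1149 bp, less than FT and G300.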

How the data were processed

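Peak lists of 8 ATAC-seq libraries, 1 per fraction, were analysed. The submitters' processing notes name Bowtie2 2.2.6, HOMER and MACS2 2.2.1 and the builds hg19 and mm10, and sequence names in the files are those of hg19. Not given in the sources used here are the read filters, the treatment of multiply mapped reads, any shift for the transposase and the settings of peak calling, all of which can affect widths. Each list deposited by the authors gives per peak an integer score, a fold enrichment ratio, a −log10 p and a −log10 q, with interval and summit, called per library.

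Peaks sharing 1 bp were merged (Python 3.11.15, pandas 2.3.3). A whole-number summit pileup up to 3000, called reads here, was recovered from the deposited fold and −log10 p, within 0.001 of the latter, with a single solution for 98.9% (G20) to 99.8% (G300) of the peaks. The lowest background of a list served as its depth, and read totals are unknown. Tests used SciPy 1.17.1, and the code was tested on simulated data.

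Named regions are the 12 widest, the 6 with most peaks in 1 list (ties broken by peaks over all lists), the 6 with the widest single peak, the 3 of fewest lists and 3 on each side of the threshold. Members, lists and tests were chosen with earlier results of these data known, and the binomial test by region was not in the written plan. Planned counts of genes by group were not made, for want of an annotation in the files' build here.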

Additional observations from a re-analysis of the deposited data

Results flagged for a closer look

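Outside the chromosomes that the rule covers, on chromosome Y and on the unplaced and random sequences, 10 of 207 merged regions (4.83%) were 1500 bp wide or more, and 9 of these were called in all 8 lists. They were noted because they are a signal in data that the comparisons above did not use, and there is no control library to set them against. The widest, of 3414 bp on the random chromosome 17 sequence gl000205, was reached over 3151 bp (G200) to 3414 bp (FT) in every list. Of the others 5 were on gl000220, a scaffold that carries ribosomal RNA genes, with widths of 1677 to 3130 bp.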

How the results depend on the processing

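Each library is 1 sample, and no paired analysis was possible because no fraction has a second replicate. The number of wide regions, 362, was 3627 at a threshold of 1000 bp, 24 at 2000 bp, 199 with all lists at equal length (the best 8102 peaks by −log10 q), and 185 where a single peak had to reach 1500 bp. Leaving out 1 library gave 186 (without FT) to 356 (without G700). It was 353 and 261 with peaks of −log10 q of at least 2 and 5, and 342 with merging over 100 bp. The share called in all 8 lists, 49.2%, was 58.3% at 2000 bp, 30.3% at a −log10 q of at least 5, 56.8% at equal list length and 62.7% for single peaks of 1500 bp. The trend of broken regions passed the adjusted test with peaks of −log10 q of at least 2 (rho −0.82, exact permutation, adjusted p = 0.0458) and with gaps of up to 300 bp closed (rho −0.82, adjusted p = 0.0455, added after seeing the data). It did not with regions of all 8 lists (rho −0.82, adjusted p = 0.0683), at 2000 bp (−0.75), with FT placed before G20 (−0.50), without G200 (−0.89, adjusted p = 0.0683 in the exact permutation test) or where the list reached 1000 bp (−0.32). The last setting keeps nearly all broken regions and takes out mostly unbroken ones. In every setting the breaks come from the same peaks that set the merged width. The read trend passed with FT placed before G20 (rho 0.86, exact permutation, adjusted p = 0.0429), was 0.77 without G200 and 0.75 without regions beside peak-free stretches or chromosome ends, and reversed to −0.71 with background scaling. Wide regions whose reads differed in 1 library numbered 7, against 1.66% of all shared regions. With background scaling they numbered 56, against 27.3% of all shared regions. They were 0 without FT and G200, 2 without G200 and 4 without FT, where the share over all shared regions was not counted. The causes of these changes were not tested, apart from the fewer peaks or libraries entered. Read totals are unknown, so how far depth limits the width seen in the late washes could not be measured.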
